A study of Mus musculus with 6 samples.

Results

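Kruppel-like factors are zinc finger transcription factors that bind GC-rich and CACCC-type boxes through a conserved block at the end of the protein. The data for 10 of their genes (Klf2, Klf3, Klf4, Klf5, Klf6, Klf7, Klf9, Klf10, Klf13 and Klf15) were taken from a table of read counts for 46983 genes by matching the gene symbol, and each of the 10 was found. All 10 passed the filter on low counts. The study sequenced poly(A) RNA of C2C12 myotubes, wild-type cells of a mouse muscle line differentiated in horse serum and treated for 24 h. In 3 libraries the cells had received corticosterone, the main glucocorticoid of rodents, at 1e-07 M, and in the other 3 they had received ethanol at 1 µL/mL, the vehicle. The question was which genes differ between the treatments. The series describes the 3 libraries of each treatment as independent biological replicates, all of 1 cell line, so the results hold for that line in culture, without the blood supply, nerve and other cells of a muscle. Libraries are named here by label and replicate number.

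In muscle and other glucocorticoid targets, KLF15 and KLF9 are known as products of glucocorticoid receptor target genes. KLF15 acts in amino acid breakdown and lipid use in muscle, and KLF9 is a repressor with links to the circadian clock. KLF2 and KLF4 are known for their roles in the endothelium, and KLF4 also for cell identity. KLF10 was found as an early target of TGF-beta signalling, and KLF3 is a repressor that recruits the corepressor CtBP.

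Total counts ran from 23877583 to 29928653 per library. Before the results, the labels were read against 3 genes that glucocorticoids are known to induce, and 2 libraries went against them. Fkbp5, whose product is a co-chaperone of the receptor, measured 151, 36.9 and 135 CPM (counts per library total, scaled with TMM factors) for labels corticosterone 1, 2 and 3, and 36.9, 177 and 35.3 CPM for labels vehicle 1, 2 and 3. Tsc22d3 and Per1 were likewise low in the library labelled corticosterone 2 and high in that labelled vehicle 2. The libraries also fell into 3 pairs that were each other's nearest by correlation of log2 CPM over 14450 genes: corticosterone 1 with vehicle 3, corticosterone 3 with corticosterone 2, and vehicle 2 with vehicle 1. In each pair, Fkbp5 was high in 1 library and low in the other. Myotube markers were abundant, with a sum of 8780 to 12000 CPM over the 6 of 7 genes found under their symbol. The sums were 12000, 11000 and 11900 CPM for labels corticosterone 1, 2 and 3, and 8780, 9800 and 11700 CPM for labels vehicle 1, 2 and 3. Markers of endothelial cells, adipocytes and leukocytes each summed to at most 2.02 CPM, and Adipoq, Cidec, Ptprc and Adgre1 had no count in any library.

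By label, none of the 10 Kruppel-like factor genes passed the test for a difference between corticosterone and vehicle. With edgeR's quasi-likelihood test, 0 of 10 passed an adjusted p of 0.05, where 0% of the 14450 genes tested passed, and 0 of 10 had an unadjusted p under 0.05, where 11.8% of all genes did. DESeq2 called 128 genes and limma-voom 0, in both cases with 0 of the 10. The CPM of the 3 libraries of one label overlapped those of the other for all 10 genes, while 16.6% of all genes showed no overlap. Of the log2 differences, corticosterone minus vehicle, 6 were positive and 4 negative, with a median of 0.05, beside 7343 positive and 7107 negative and a median of 0.004 over all genes. In RNA from a whole culture, fewer cells of a type and less RNA per cell cannot be told apart.

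Klf9, Klf13 and Klf15 each had their 3 highest libraries in those labelled corticosterone 1, corticosterone 3 and vehicle 2, which are the 3 libraries with high Fkbp5. Klf9 (ENSMUSG00000033863, GRCm38 chromosome 19, 23141226 to 23168134) measured 79.9, 50.3 and 61.1 CPM for labels corticosterone 1, 2 and 3, and 53.0, 81.1 and 51.8 CPM for labels vehicle 1, 2 and 3. Vehicle 2 and corticosterone 1 were thus its highest libraries, and corticosterone 2 its lowest. By label it gave 63.8 ± 15.0 against 61.9 ± 16.6 CPM (SD, n = 3 each). The log2 difference was 0.04 ± 0.22 (SE; adjusted p = 0.951 by edgeR). Klf13 (ENSMUSG00000052040, chromosome 7, 63886351 to 63938915), which encodes a factor best known in lymphocytes and the heart, measured 155, 129 and 166 CPM for labels corticosterone 1, 2 and 3, and 105, 145 and 105 CPM for labels vehicle 1, 2 and 3. The labels overlapped only through corticosterone 2, below vehicle 2. By label Klf13 gave 150.1 ± 19.2 against 118 ± 23.3 CPM (SD, n = 3 each). The log2 difference was 0.34 ± 0.15 (SE; adjusted p = 0.433 by edgeR). Of the 10 genes Klf13 had the smallest unadjusted p in the edgeR fit, at 0.0588.

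Klf15 (ENSMUSG00000030087, chromosome 6, 90462576 to 90475238) was the least abundant of the 10 genes and the one that varied most. It had 80, 16 and 79 counts in the libraries labelled corticosterone 1, 2 and 3 and 65, 143 and 25 counts in those labelled vehicle 1, 2 and 3. As CPM these were 2.79, 0.548 and 3.10 against 2.54, 4.93 and 1.04, an 8.99-fold span from the lowest library to the highest. The exact Poisson 95% interval, which covers counting error only, was 0.313 to 0.889 CPM for corticosterone 2 and 2.46 to 3.87 CPM for corticosterone 3, so these libraries of the same label lay apart beyond counting error. The same held for vehicle 2 (4.15 to 5.80 CPM) against vehicle 1 (1.96 to 3.24 CPM). The interval of vehicle 1, by contrast, overlapped those of corticosterone 1 (2.21 to 3.48 CPM) and corticosterone 3. The value of vehicle 1, 2.54 CPM, also lay inside both of those intervals. That corticosterone 1 and corticosterone 3 lay above vehicle 1 is therefore not settled at this depth. By label Klf15 gave 2.15 ± 1.39 against 2.84 ± 1.96 CPM (SD, n = 3 each). The log2 difference was -0.42 ± 0.69 (SE; adjusted p = 0.821 by edgeR).

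The 250 bases before the RefSeq start of these 3 genes are shown because they are the members that were high in the same 3 libraries (build GRCm38.p6, 5′ to 3′ on the strand of the gene). The window of Klf9 lies on the plus strand at chr19:23140976-23141225, Klf13 on the minus strand at chr7:63938916-63939165 and Klf15 on the plus strand at chr6:90462326-90462575. Capitals mark GGGTG, the core of the CACCC-type box, on either strand, and CACGTG, the E-box letters that clock factors are known to bind.
Klf9: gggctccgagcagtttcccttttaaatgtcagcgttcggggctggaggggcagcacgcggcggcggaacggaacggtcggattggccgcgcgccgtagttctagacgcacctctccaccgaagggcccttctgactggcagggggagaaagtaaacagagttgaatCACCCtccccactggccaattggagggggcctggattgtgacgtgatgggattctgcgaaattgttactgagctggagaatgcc
Klf13: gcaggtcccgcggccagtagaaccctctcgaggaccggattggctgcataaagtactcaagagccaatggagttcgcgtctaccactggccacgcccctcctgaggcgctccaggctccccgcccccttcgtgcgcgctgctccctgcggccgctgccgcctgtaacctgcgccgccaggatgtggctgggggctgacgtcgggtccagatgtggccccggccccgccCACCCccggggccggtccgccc
Klf15: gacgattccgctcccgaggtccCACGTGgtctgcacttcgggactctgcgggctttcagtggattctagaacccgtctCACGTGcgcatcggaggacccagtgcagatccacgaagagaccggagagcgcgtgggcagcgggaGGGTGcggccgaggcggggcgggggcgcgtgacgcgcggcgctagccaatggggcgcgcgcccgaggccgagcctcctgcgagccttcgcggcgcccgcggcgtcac
Windows were found for 8 of the 10 genes, with none for Klf5 and Klf10. Each of the 3 sequences holds 1 match to GGGTG or CACCC, and 52% of 32851 windows of this length hold at least 1. Klf15 holds 2 matches to CACGTG, which 6.02% of windows hold at least once, and Klf9 and Klf13 hold none. The letters of a full glucocorticoid response element (GNACA and TGTNC with 3 bases between them) were searched on both strands and found in 0 of the 8 windows and in 0.387% of all. The half-site AGAACA was found in 0 of the 8 and in 16.1% of all. The other matches were in Klf3 (5 to GGGTG or CACCC), Klf7 (3), Klf2 (1), and in Klf4 and Klf6, which each hold 1 match to CACGTG. A match describes letters in this window only, and elements farther away were not searched.

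**Figure D1:**
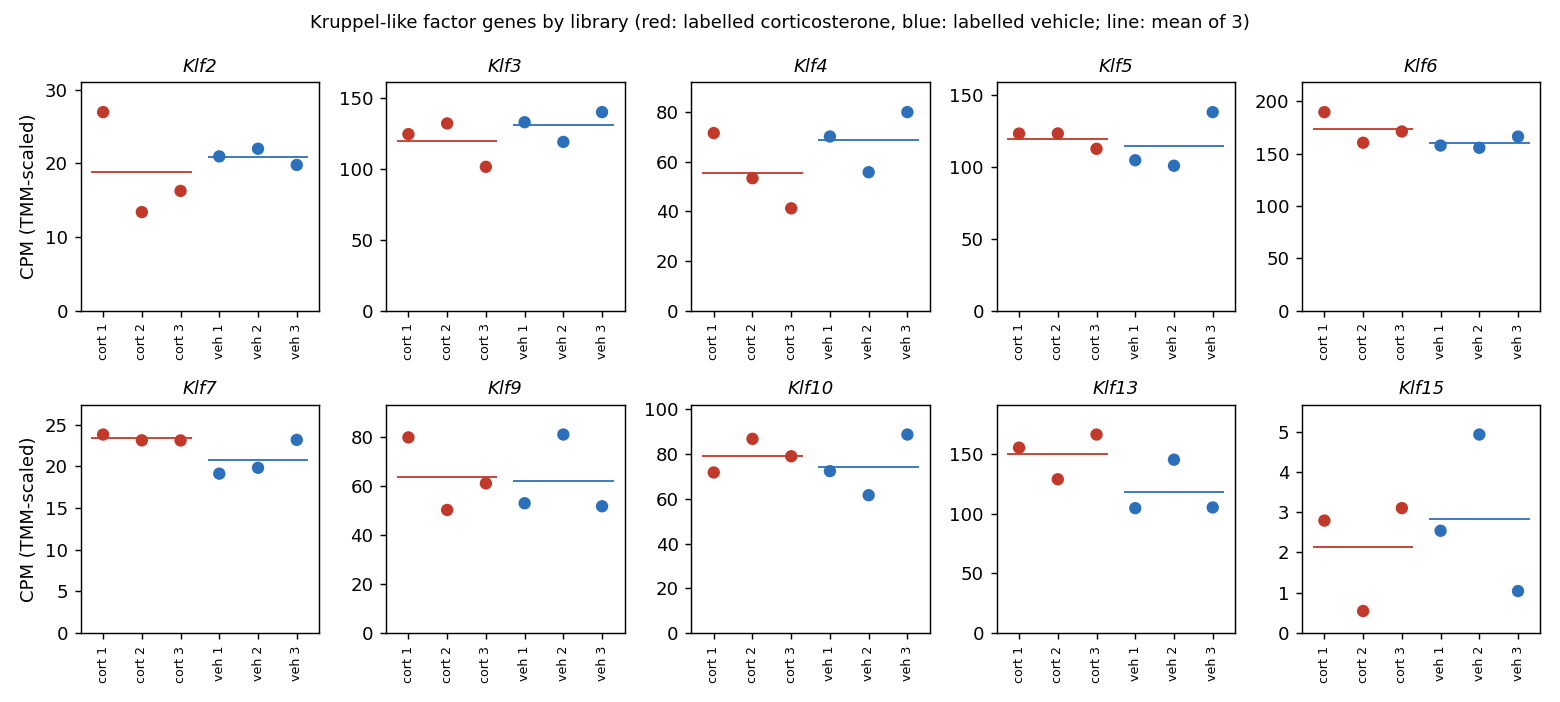
CPM (TMM-scaled, axis from 0) of the 10 Kruppel-like factor genes in each library; red points are labelled corticosterone, blue points vehicle, and lines are the means of 3. Klf9, Klf13 and Klf15 are highest in corticosterone 1, corticosterone 3 and vehicle 2, and the labels overlap for all 10 genes.

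Klf3 had the opposite arrangement, with its 3 lowest libraries in corticosterone 1, corticosterone 3 and vehicle 2. Klf3 (ENSMUSG00000029178, chromosome 5, 64803388 to 64832901) measured 124, 132 and 101 CPM for labels corticosterone 1, 2 and 3, and 133, 119 and 140 CPM for labels vehicle 1, 2 and 3. The highest library was 1.38 times the lowest. The 95% counting interval of corticosterone 1 (120.3 to 128.5 CPM) overlapped those of corticosterone 2 (127.8 to 136.1 CPM) and vehicle 1 (128.3 to 137.3 CPM) at the ends only. Its value of 124 CPM lay below both of those intervals. Overlap at the ends does not place a difference within counting error, and single libraries were not tested against each other. For Klf9 and Klf13 no such overlap stood between the 3 higher and the 3 lower libraries. By label Klf3 differed by -0.13 ± 0.11 on the log2 scale (SE, edgeR adjusted p = 0.659). Its exons share 404 bases with Gm20033 on the other strand, which had 51 to 65 counts in a library.

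Read in this second way, 3 of the 10 genes (Klf9, Klf13 and Klf15) lay above in corticosterone 1, corticosterone 3 and vehicle 2, where 4.89% of all genes tested did. A single member, Klf3, lay below, where 4.74% of all genes did. In either direction these were 4 of 10 members, and 9.63% of all genes. This arrangement of the libraries follows the measured level of Fkbp5, Tsc22d3 and Per1 and not the labels. It is therefore given as a description, with no mean and no test, and whether the 2 libraries carry exchanged labels was not tested.

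The pairs of most alike libraries gave another view of the same arrangement. The libraries of each pair differ in Fkbp5 and are each other's nearest over all genes. The log2 ratio of the library with more Fkbp5 to the other was 0.63 for corticosterone 1 over vehicle 3, 0.28 for corticosterone 3 over corticosterone 2 and 0.61 for vehicle 2 over vehicle 1 in Klf9. For Klf13 the 3 ratios were 0.56, 0.37 and 0.47, and for Klf15 they were 1.42, 2.50 and 0.96. Klf13 thus varied least between the pairs of these 3 genes, and Klf15 most. Klf2 was also positive in every pair, at 0.45, 0.28 and 0.07, although its libraries overlapped when all 6 were read together. Klf3 (-0.17, -0.38 and -0.16), Klf4 (-0.16, -0.37 and -0.33), Klf5 (-0.16, -0.13 and -0.05) and Klf10 (-0.31, -0.14 and -0.23) were negative in every pair. Klf6 (0.19, 0.09 and -0.02) and Klf7 (0.04, -0.001 and 0.05) differed in sign between pairs. In all, 4 genes were positive in 3 of 3 pairs, where 20% of all genes were, and 4 were negative, where 20.5% were. The 8 of 10 members with the same sign in every pair stand beside 40.5% of all genes. Every pair sets 1 of corticosterone 1, corticosterone 3 and vehicle 2 over 1 of the other libraries. The signs of Klf9, Klf13, Klf15 and Klf3 were therefore fixed by the arrangement above and are no further result. Each ratio compares 2 single libraries and has no replicate check. For scale, the corresponding ratios of Fkbp5 were 2.10, 1.87 and 2.26.

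**Figure D2:**
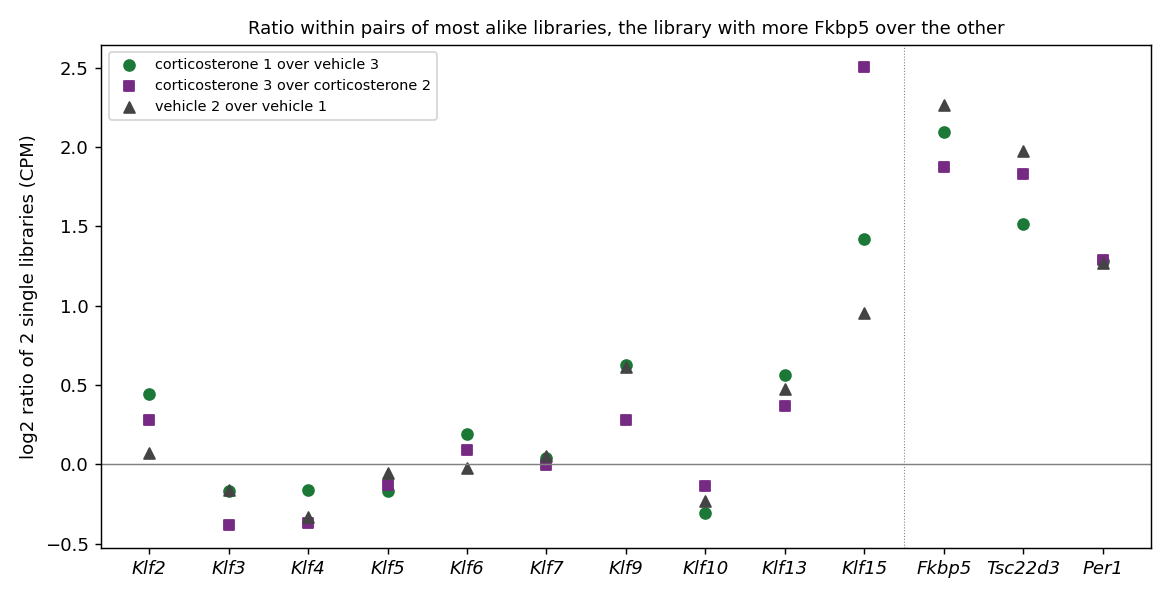
Log2 ratio of CPM between the 2 libraries of each most-alike pair, the library with more Fkbp5 over the other, for the 10 genes and the 3 label check genes (right of the dotted line). Klf15 runs from 0.96 to 2.50 and Klf9 and Klf13 from 0.28 to 0.63, while Klf3, Klf4, Klf5 and Klf10 lie below 0 in every pair.

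Klf2 and Klf4, which encode closely related factors, were each lower in corticosterone 2 and 3 than in corticosterone 1. Klf2 (ENSMUSG00000055148, chromosome 8, 72319033 to 72321656) measured 26.9, 13.4 and 16.3 CPM for labels corticosterone 1, 2 and 3, and 20.9, 22.0 and 19.8 CPM for labels vehicle 1, 2 and 3. The libraries labelled corticosterone thus held both its highest and its lowest values, with the 3 vehicle libraries between them. Its log2 difference by label was -0.15 ± 0.24 (SE, edgeR adjusted p = 0.818). Without corticosterone 1 it was -0.50 ± 0.12 (SE, edgeR adjusted p = 0.157), and without corticosterone 2 it was 0.05. Klf4 (ENSMUSG00000003032, chromosome 4, 55527143 to 55532466) stood at 71.6, 53.4 and 41.3 CPM against 70.2, 55.8 and 80.0 CPM. Corticosterone 3 was its lowest library and vehicle 3 its highest. By label it differed by -0.31 ± 0.21 (SE, edgeR adjusted p = 0.576).

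Klf5, a factor of proliferating epithelium and smooth muscle that also acts in muscle differentiation (ENSMUSG00000005148, chromosome 14, 99298691 to 99315036), measured 123, 123 and 113 CPM for labels corticosterone 1, 2 and 3, and 105, 101 and 138 CPM for labels vehicle 1, 2 and 3, and differed by 0.06 ± 0.13 on the log2 scale (SE; adjusted p = 0.852 by edgeR). Vehicle 3 was its highest library and vehicle 2 its lowest. Klf10 (ENSMUSG00000037465, chromosome 15, 38291463 to 38300706) stood at 71.8, 86.8 and 79.0 CPM against 72.4, 61.6 and 88.7 CPM, and differed by 0.09 ± 0.14 on the log2 scale (SE; adjusted p = 0.8 by edgeR). It shared its highest and lowest libraries, vehicle 3 and vehicle 2, with Klf5.

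Klf6, a widely expressed factor known as a growth suppressor (ENSMUSG00000000078, chromosome 13, 5861482 to 5870394), stood at 189.7, 160.5 and 171 CPM against 158, 156 and 166 CPM, a span of 1.22-fold. Only corticosterone 2 fell within the range of the vehicle libraries, and the log2 difference was 0.12 ± 0.08 (SE, edgeR adjusted p = 0.585). Klf7, known for its role in neurons and adipocytes (ENSMUSG00000025959, chromosome 1, 64029447 to 64122282), stood at 23.8, 23.1 and 23.1 CPM against 19.1, 19.8 and 23.2 CPM. The libraries labelled corticosterone were close together, and vehicle 3 lay among them. By label it differed by 0.17 ± 0.10 (SE, edgeR adjusted p = 0.512). Klf7 exons share 3196 bases with Gm26649 on the other strand. That gene had 0 counts in every library, and reads of the shared stretch cannot be told apart by strand here.

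Against genes of like abundance (a mean CPM within 2-fold), the span of Klf15 from its lowest to its highest library was larger than that of 98.7% of 1865 genes, that of Klf4 larger than 95.6% of 4434 genes and that of Klf2 larger than 91.8% of 3970 genes. Klf13 followed, above 90.3% of 2985 genes, and then Klf9, above 90.03% of 4435 genes. Klf10 (81.1% of 4196 genes), Klf3 (75.8% of 3159 genes) and Klf5 (74.9% of 3297 genes) came next. Klf6 and Klf7 were less variable than the middle gene of their abundance, at 45.3% and 34.2%. This is a description of 6 libraries and not a test.

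Compared per length, Klf6 was the most abundant of the 10 genes. Its level was 38.0 ± 2.86 CPM per kb of merged exon length (SD over the 6 libraries), and its lowest library, at 35.5 CPM per kb, lay above every library of the next gene. Klf5 (22.5 ± 2.66), Klf4 (20.3 ± 4.70), Klf10 (18.4 ± 2.45), Klf13 (17.8 ± 3.43), Klf9 (13.1 ± 2.94), Klf3 (11.1 ± 1.21) and Klf2 (10.8 ± 2.55 CPM per kb) followed, and the ranges of neighbours in that order overlapped. Klf7, at 2.71 ± 0.25 CPM per kb, lay below all of these in each library, and Klf15, at 0.893 ± 0.561 CPM per kb, below Klf7. The merged exons of Klf3 span 11243 bases and those of Klf2 1847 bases, so the level of Klf3 depends on how much of its annotated length these cells transcribe, which was not measured. Of the 8131 exon bases of Klf7, 3196 are shared with Gm26649. Its level therefore also depends on how reads of that stretch were counted, which is not stated.

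**Figure D3:**
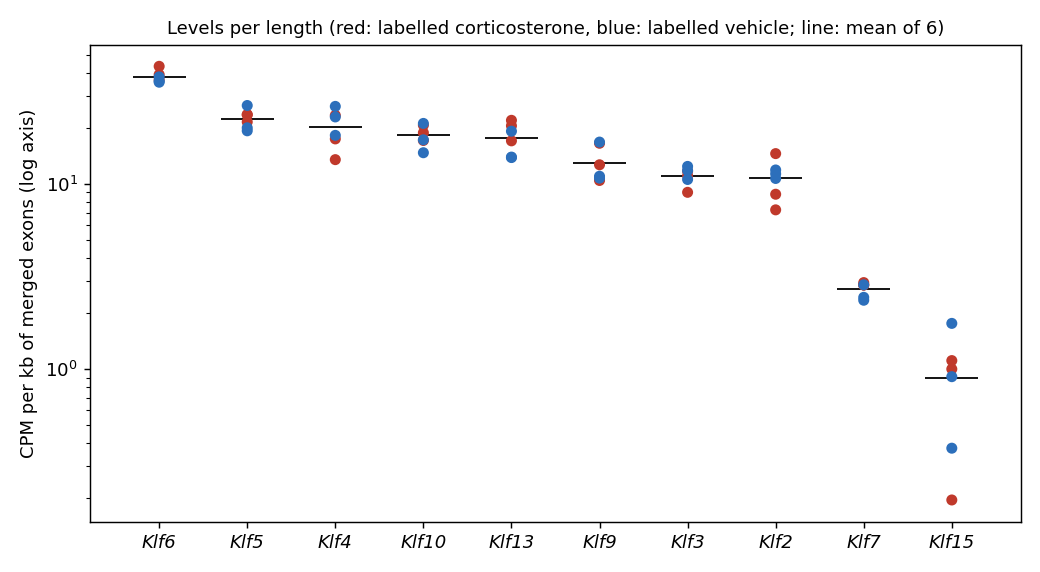
CPM per kb of merged exons (log axis) for the 10 genes, ordered by mean; points are single libraries (red labelled corticosterone, blue labelled vehicle) and lines the mean of 6. Klf6 lies above and Klf7 and Klf15 below the other genes in every library, and the 7 genes between overlap with their neighbours.

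With the libraries labelled corticosterone 2 and vehicle 2 both left out, and the other labels kept, 0 of 10 genes passed, and 3 of 14450 genes did. Klf13 then differed by 0.62 ± 0.11 (SE, edgeR adjusted p = 0.398), against 0.34 with all libraries. Klf9 moved from 0.04 to 0.43 ± 0.15 (SE, edgeR adjusted p = 0.735), and Klf15 turned from -0.42 to 0.71 ± 0.45 (SE, edgeR adjusted p = 0.834). Klf2, Klf5 and Klf10 also turned sign, to 0.09, -0.04 and -0.10. The 2 libraries were left out because of Fkbp5 and similar genes, so the values are not independent support for a direction. For Klf9, Klf13 and Klf15 corticosterone 2 was the lowest library of its label and vehicle 2 the highest of its own. A rise on leaving them out was therefore fixed in advance for these genes and is no further result. Klf4 and Klf3 stayed negative, at -0.41 and -0.27.

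**Figure D4:**
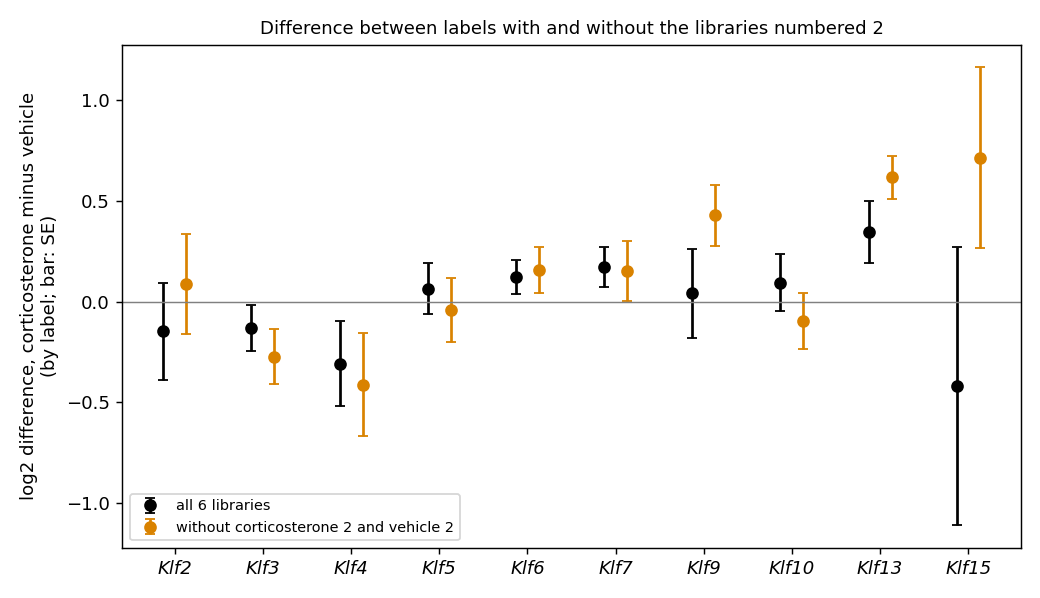
Log2 difference, corticosterone minus vehicle by label, for the 10 genes with all 6 libraries (black) and without corticosterone 2 and vehicle 2 (orange); bars are SE. Klf9 moves from 0.04 to 0.43, Klf13 from 0.34 to 0.62 and Klf15 from -0.42 to 0.71.

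Of 16 other genes of the Kruppel-like and Sp families, 8 passed the count filter and 0 were called, 5 higher and 3 lower by label with a median log2 difference of 0.007. Klf14 and Sp5 had no count, and Klf1, Klf8, Klf17, Sp6, Sp7 and Sp9 were under the filter. Sp1, which encodes a widely expressed activator of GC-box promoters, measured 145, 176 and 155 CPM for labels corticosterone 1, 2 and 3, and 135, 133 and 141 CPM for labels vehicle 1, 2 and 3. Its labels did not overlap, as for 2 of the 8 genes and for 16.6% of all genes, and it differed by 0.22 ± 0.09 (SE, edgeR adjusted p = 0.411). Sp3, its close relative, differed by -0.05 ± 0.07, and Sp4 by 0.26 ± 0.13. None of the 8 genes had corticosterone 1, corticosterone 3 and vehicle 2 apart from the other 3 libraries in either direction, beside 9.63% of all genes. With so few genes, that count does not set them apart from the members. The 8 include Klf11 and Klf16, which encode repressors related to KLF10 and to KLF9 and KLF13.

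Of 18 genes for partners of Kruppel-like factors and for the kinases and MEF2 factors upstream of Klf2 and Klf4, 18 were tested and 0 called, 14 higher and 4 lower by label with a median of 0.04. The 4 genes whose labels did not overlap stand beside the 16.6% over all genes. Fbxw7, part of a ubiquitin ligase that marks KLF proteins for breakdown, stood at 67.2, 62.8 and 50.8 CPM against 73.2, 72.5 and 87.1 CPM, lower in all 3 libraries labelled corticosterone (log2 difference -0.36 ± 0.12 SE, edgeR adjusted p = 0.367). Mef2c, a muscle transcription factor, stood at 519, 386 and 395 CPM against 522, 563 and 524 CPM, also without overlap (-0.31 ± 0.13 SE, edgeR adjusted p = 0.408). Mef2a differed by 0.02 ± 0.13. Ctbp1, the KLF3 corepressor gene, chosen here after its values were seen, stood at 294, 267 and 298 CPM against 273, 282 and 267 CPM. It was the 1 gene of the 18 that lay above in corticosterone 1, corticosterone 3 and vehicle 2, where 4.89% of all genes did. The margin was narrow, between 282 CPM in vehicle 2 and 273 CPM in vehicle 1. The summed level of 6 markers of proliferating myoblasts also lay apart by label, at 213 to 230 CPM in the libraries labelled corticosterone and 249 to 258 CPM in those labelled vehicle. Singly, Top2a and Ccna2 were lower without overlap, Mki67 and Cdk1 overlapped with negative log2 differences (-0.29 and -0.53), and Pax7 and Myf5 overlapped with positive ones (0.09 and 0.14). Their part in these differences was not tested. The same sums were 213 to 249 CPM in corticosterone 1, corticosterone 3 and vehicle 2 and 217 to 258 CPM in the other libraries, which overlap. In that reading Mki67 singly lay below without overlap and Myf5 above, the latter narrowly (22.2 CPM in vehicle 2 against 21.9 CPM in vehicle 3). Top2a, Ccna2, Cdk1 and Pax7 overlapped. Of all genes, 9.63% lay apart in either direction.

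Of 10 genes reported to be regulated by KLF15 in muscle or liver, 8 were tested and 0 called, 5 higher and 3 lower by label with a median of 0.13. Tat had no count and Cpt1b was under the filter. Of the 8, only Trim63 had the arrangement of Klf15, which 4.89% of all genes had. Trim63, a ubiquitin ligase of muscle wasting, was chosen here after its values were seen. It measured 61.1, 55.5 and 61.2 CPM for labels corticosterone 1, 2 and 3, and 41.8, 58.5 and 54.9 CPM for labels vehicle 1, 2 and 3. The margin was narrow, between 58.5 CPM in vehicle 2 and 55.5 CPM in corticosterone 2. Slc25a20, the mitochondrial carnitine carrier, stood at 46.8, 48.4 and 49.2 CPM against 38.2, 37.4 and 42.4 CPM, without overlap by label (log2 difference 0.29 ± 0.08 SE, edgeR adjusted p = 0.364). Gpt2, an alanine aminotransferase, was highest in vehicle 3 (292 CPM) and lowest in vehicle 2 (116 CPM), where Klf15 was highest, and differed by 0.32 ± 0.32. Fbxo32, a second ubiquitin ligase of muscle wasting, was highest in vehicle 2, at 175 CPM, as Klf15 was. Its next highest library was corticosterone 2, at 158 CPM, where Klf15 was lowest. Fbxo32 differed by 0.07 ± 0.16 (SE, edgeR adjusted p = 0.881). Within the pairs of most alike libraries, Bcat2, Prodh, Gpt, Slc2a4 and Trim63 were positive in every pair, where 20% of all genes were. Gpt2 was negative in every pair, where 20.5% were, and Slc25a20 and Fbxo32 differed in sign. Some ratios were small, such as 0.07 for Slc2a4 and 0.08 for Gpt in vehicle 2 over vehicle 1. This reading was added after the values were seen, and a link to Klf15 was not tested.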

How the data were processed

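The deposited table holds the authors' raw counts of reads for each gene in 6 libraries, and every column was mapped. Per the submitters' processing notes, the build was mm10 and the tools included HTSeq 0.6.1, HISAT2 2.0.5 and DESeq2 1.24.0. Neither settings nor annotation release nor strand handling is given in the sources used here. Of 46983 gene identifiers, 98.95% matched GENCODE M21 (GRCm38), which gave positions and merged exon lengths. RefSeq promoter windows are on GRCm38.p6.

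Corticosterone was compared with vehicle, by label, with edgeR 4.0.16 in R 4.3.3 (quasi-likelihood F-test, two-sided, TMM scaling, filterByExpr, Benjamini-Hochberg adjustment over 14450 genes, threshold 0.05). SE was derived from the fold change and its F statistic. Alternatives were DESeq2 1.42.0, limma-voom (limma 3.58.1), 3 other scalings, 2 other filters, replicate number as a block, each library left out, and both libraries numbered 2 left out. No 2 libraries agreed within sampling noise (chi-square per degree of freedom at least 16.79). A count of 3 equalled 0.103 to 0.125 CPM.

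The members, lists and alternatives were chosen with earlier results of these data known. Named genes were the 10 members, the 3 label check genes and, of each other list, the 2 with the highest mean CPM and the 2 with the largest absolute log2 difference among those with a mean of at least 1 CPM. Protein sequences were not used here.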

Additional observations from a re-analysis of the deposited data

How the results depend on the processing

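No Kruppel-like factor gene was called under any of the 15 alternatives. The count over all genes was 0 with edgeR, 128 with DESeq2 (62 higher and 66 lower), 3 without both libraries numbered 2, and 0 to 29 with 1 library left out: 29 when corticosterone replicate 1 was dropped, 11 when vehicle replicate 3 was, and 0 for each of the other 4. The cause was not tested.

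Klf3, Klf4, Klf6, Klf7 and Klf13 kept their direction under all 15 alternatives. Klf9 turned to -0.0067 when libraries were scaled by totals only. Without both libraries numbered 2, Klf2 turned to 0.087, Klf5 to -0.042, Klf10 to -0.10 and Klf15 to 0.71. With 1 library left out, the log2 difference ran from -0.50 to 0.049 for Klf2, from -0.021 to 0.21 for Klf5, from -0.15 to 0.28 for Klf9, from -0.026 to 0.23 for Klf10 and from -0.81 to 0.25 for Klf15. Klf15 turned positive when corticosterone replicate 2 (0.043) or vehicle replicate 2 (0.25) was left out.

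With replicate number as a block, 0 genes were called, and the log2 difference was 0.05 for Klf9, 0.35 for Klf13 and -0.37 for Klf15. Same-numbered libraries did not deviate together (r = -0.15, -0.27 and -0.33 across genes for replicates 1, 2 and 3), so the numbers are not read as pairing. Klf15 had 16 to 143 counts in a library, and its SE was 0.69 with all libraries and 0.45 without both libraries numbered 2.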
